A study of Zea mays with 4 samples.

Results

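Transcripts of the enzymes that make and turn over organic acids were examined in maize (Zea mays) roots 1 h after local nitrate supply. The set holds 148 of the 54787 maize probe IDs that had a single spot on a single array version. They were taken by their annotation, which had to name phosphoenolpyruvate (PEP) carboxylase, pyruvate dehydrogenase, malic enzyme, malate dehydrogenase or an enzyme of the tricarboxylic acid (TCA) cycle. Version A carried 80 of these probes and version B 68. The rule itself reads no measured value, but it was set with earlier results of these data known. The pattern also took 3 probes for 3-isopropylmalate dehydrogenase, an enzyme of leucine synthesis, and 1 probe for a predicted rice protein. The latter is described as similar to a bacterial entry that names homocitrate synthase, homoaconitate hydratase and an open reading frame, without saying which. These 4 were kept apart as off the pathway.

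Seedlings had received 0.5 mM nitrate for 6 days and no nitrogen for the next 2 days before their roots were divided between 2 compartments. The nitrate-treated side was given 1 mM nitrate, and the control side stayed without nitrogen and was given 1 mM calcium chloride so that both sides had calcium. Total RNA came from the apical 15 cm of the roots at day 10. It holds all cell types of the segment, and in such RNA fewer cells of a type and less RNA per cell cannot be told apart. Nitrate-side RNA was labelled with Cy3 and control-side RNA with Cy5 on each of 4 spotted oligonucleotide arrays, 2 for each of the versions A and B, which carry different probes. No array had the dyes exchanged, so a dye effect particular to a probe cannot be told apart from nitrate in any value given here.

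PEP carboxylase fixes bicarbonate onto PEP in the cytosol and gives oxaloacetate, which malate dehydrogenase reduces to malate. In the mitochondrion, pyruvate dehydrogenase supplies acetyl-CoA, and citrate synthase, aconitase and isocitrate dehydrogenase carry its carbon to 2-oxoglutarate, the carbon skeleton onto which ammonium is assimilated. In roots, malate also balances charge when nitrate is reduced, and malic enzyme decarboxylates malate to pyruvate. The comparison asks whether transcripts of these enzymes differ between the side that met nitrate and the side that did not.

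The arrays were of similar brightness. The median maize spot read 1572.5 to 1939 for nitrate and 1438 to 1960 for control, and the 95th percentiles of buffer and blank spots were 242 or less. As a check of the labels, the 11 probes described as nitrate or nitrite reductase, the enzymes that reduce nitrate to ammonium, had a median log2 ratio of nitrate over control of 0.76, with 10 of 11 means above 0. The highest was a ferredoxin-nitrite reductase (MZ00016104) at 2.94 ± 0.49 (SD, n = 2; limma adjusted p = 0.00903). Of the 56 probes described as root-specific, root cap or root patterning genes, 53 were measurable, with log2 ratios from -0.72 to 1.33. Probes for leaf proteins were also measurable, 79 of 84, with ratios from -0.94 to 1.18 and a median of -0.04, as were 219 of 323 for seed storage proteins, with ratios from -1.50 to 1.53 and a median of 0.06. The part of such transcripts in the values below was not tested.

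Of the 148 probes, 144 were tested, 79 on version A and 65 on version B, since they exceeded the blank spots in at least 1 channel of both arrays. The 4 others were a PEP carboxylase (MZ00048190), a pyruvate dehydrogenase kinase (MZ00043690) and an aconitase (MZ00046409) on version B and a succinate dehydrogenase subunit 4 (MZ00014167) on version A. The set was bright, and 140 of the 144 exceeded the blank spots in both channels of both arrays. It is also redundant. The 148 probes point to 67 top protein hits, 111 of them share their hit with another member, and 49 have a maize protein as the hit, so members are not independent and a probe stands for a transcript, not for an enzyme.

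No member passed the test. The mean log2 ratio of the 2 arrays was tested against 0 with limma, and an adjusted p under 0.05 was reached by 0 of the 79 members of version A and 0 of the 65 of version B, where the share of all tested probes was 0% of 28374 for version A and 0.0525% of 24746 for version B. The smallest adjusted p among members was 0.278 on version A and 0.148 on version B. At an unadjusted limma p under 0.05, 5 members of version A were higher with nitrate (6.33%, against 7.55% of all probes) and 1 was lower (1.27%, against 4.49%). On version B, 8 were higher (12.3%, against 7.64% of all probes) and 2 lower (3.08%, against 5.29%). No member was at least 2-fold higher on both arrays of its version, which 0.592% of probes were on version A and 0.59% on version B. None was 2-fold lower on both, against 0.127% on version A and 0.0566% on version B.

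The 2 arrays of a version often disagreed in sign. On version A, 21 of the 79 members had a ratio above 0 on both arrays (26.6%, against 30.4% of all probes), 19 had one below 0 on both (24.1%, against 30.1%), and 39 had opposite signs. On version B, 26 of 65 were above 0 on both (40.0%, against 29.7% of all probes), 13 below 0 on both (20.0%, against 30.6%), and 26 opposite. Over the members, the log2 ratios of the arrays correlated at a Pearson r of 0.21 on version A and 0.37 on version B. Over all tested probes it was 0.29 and 0.27 for the same versions; these are descriptions across probes that share a pair of arrays. The members had a median log2 ratio of 0.03 for version A and 0.15 for version B, with all probes at 0.00 on both. The version B value came mostly from replicate 1, whose median was 0.19, against 0.04 on replicate 2.

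**Figure D1:**
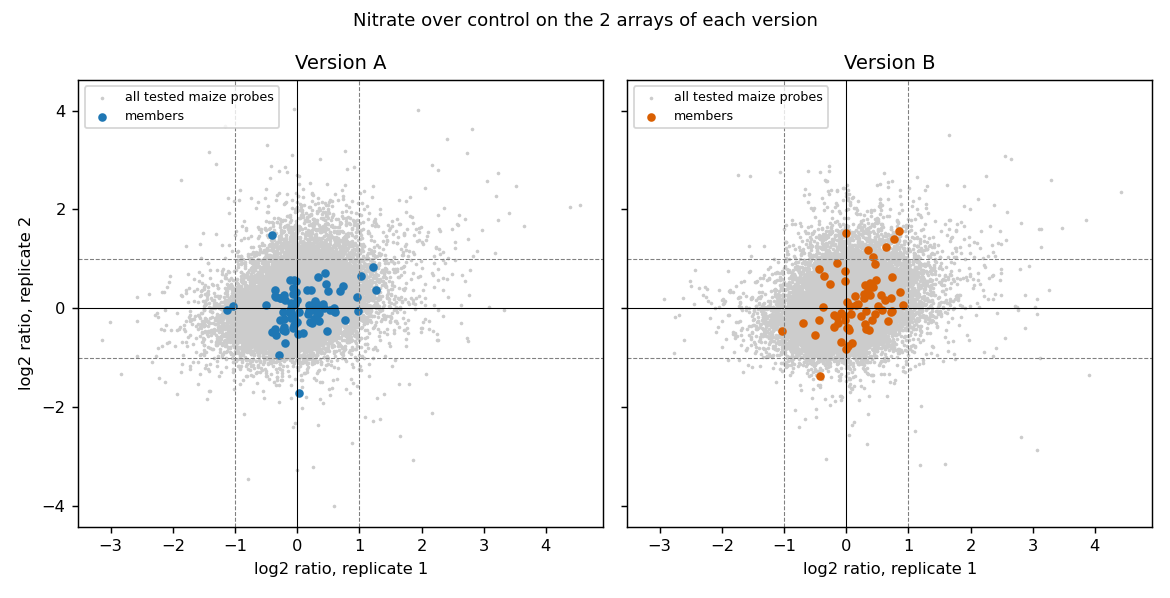
Log2 ratio of nitrate over control on replicate 1 (horizontal axis) and replicate 2 (vertical axis), with version A on the left and version B on the right; grey points are all tested maize probes, coloured points the 79 and 65 tested members, and dashed lines mark 2-fold. No member lies in the upper right or lower left corner beyond both 2-fold lines.

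Values below are normalised intensities, after background correction and loess, given first for nitrate on replicates 1 and 2 and then for control. The arrays were not scaled to each other, so the ratio within each array is the measurement and levels are not compared between probes. Whether the nitrate and control values of a probe lay apart or overlapped across arrays therefore depends also on array brightness. Such statements describe the values only, and how many of all probes lay apart was not counted. Where the direction of a single probe turned when each array's ratios were centred on their median in place of loess, that value is given too. Loess removes a trend of ratio with brightness and median centring leaves it in. The 93 members brighter than the median probe had a median log2 ratio of 0.09 by loess and -0.23 by median centring, whereas the 51 dimmer members had 0.11 and 0.29. Over all tested probes, the brighter ones had -0.01 by loess and -0.23 by median centring, and the dimmer ones 0.01 and 0.20. The sign of the mean turned for 37 of the 144 members and for 11028 of all 53120 tested probes.

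**Figure D2:**
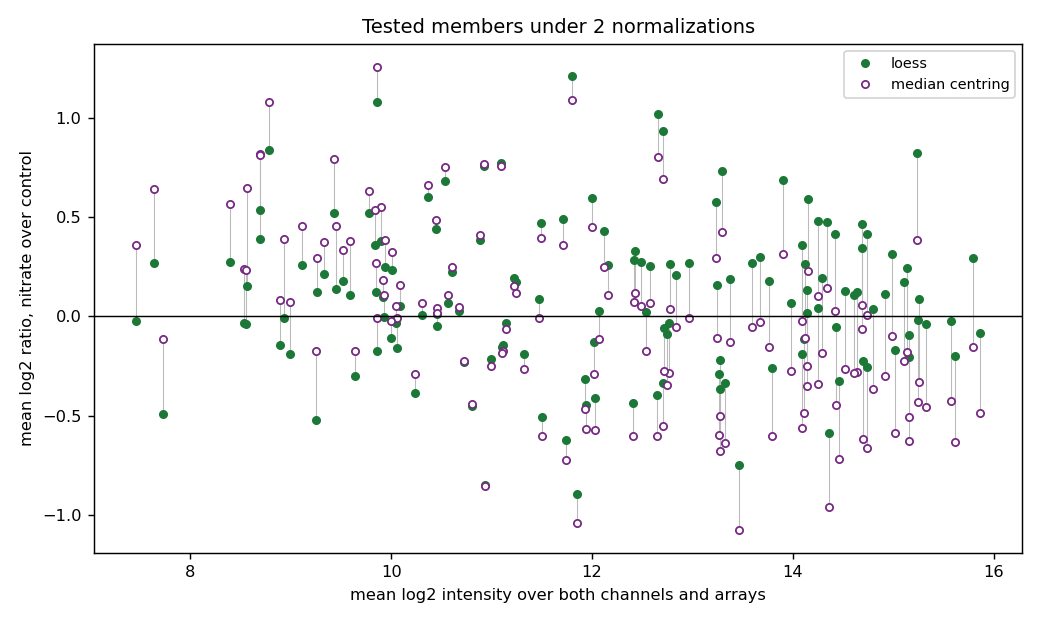
Mean log2 ratio of nitrate over control (vertical axis) against brightness, the log2 intensity averaged over channels and arrays (horizontal axis) for the 144 tested members, by loess (filled green) and by median centring (open purple), with a line joining the values of each member. Median centring places most bright members lower and most dim members higher than loess does.

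PEP carboxylase, the entry of carbon into the oxaloacetate and malate pool, had 11 tested probes with a median log2 ratio of 0.26, of which 5 were above 0 and 2 below 0 on both arrays. The highest was MZ00034966, whose top hit is a moss protein of Funaria hygrometrica. It read 14464 and 34493 with nitrate, against 8653 and 25354 in the control. On each array the nitrate side was the brighter, although the 2 sides overlapped across arrays. Its mean log2 ratio was 0.59 ± 0.21 (SD, n = 2), a ratio of 1.51-fold with a limma adjusted p of 0.398. The lowest, MZ00043213, read 12119 and 6870 with nitrate, against 16396 and 8093 in the control, with a mean of -0.34 ± 0.14 (limma adjusted p = 0.594). The brightest, MZ00023938, was saturated in both channels of replicate 2, which leaves 1 usable ratio, 0.22 on replicate 1. Its mean over both arrays was 0.29 by loess and -0.15 by median centring. These last 2 probes share a maize protein hit with 2 more, and the 4 ranged from -0.34 to 0.36. The 2 tested probes described as the housekeeping isozyme had means of 0.00 and -0.03 by loess, each with opposite signs on its 2 arrays, and 0.11 and 0.24 by median centring.

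PEP carboxylase kinase phosphorylates PEP carboxylase and makes it less sensitive to inhibition by malate. Its 3 probes, all on version B and all with the same sorghum protein as hit, did not move together. MZ00029013 had the lowest ratio of all members. It read 3476 and 2109 with nitrate, against 4653 and 5429 in the control, so that both nitrate values lay below both control values. The log2 ratio was -0.42 on replicate 1 and -1.36 on replicate 2, with a mean of -0.89 ± 0.67 (SD, n = 2; limma adjusted p = 0.256). MZ00029014 had a mean of -0.16 ± 0.02 and read 1105 and 926 with nitrate, against 1222 and 1044 in the control. MZ00038063, the brightest of the 3, had 0.19 ± 0.08 by loess and -0.13 by median centring.

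Malic enzyme gave the highest ratio of all members. MZ00035640, described as the non-photosynthetic NADP-malic enzyme of maize, read 3340 and 8805 with nitrate, against 1848 and 2970 in the control. Both nitrate values lay above both control values. The log2 ratio was 0.85 on replicate 1 and 1.57 on replicate 2, with a mean of 1.21 ± 0.50 (SD, n = 2), a ratio of 2.31-fold with a 95% interval of 0.62 to 1.80 on the log2 scale and a limma adjusted p of 0.148. The interval is for this probe alone, whereas the adjusted p takes in all probes of the array. The 2 other probes with the same hit had means below 0 by loess. MZ00035594, the brightest malic enzyme probe, read 24600 and 39935 with nitrate, against 28243 and 44138 in the control, a mean log2 ratio of -0.17 ± 0.04, and MZ00041285 had -0.19 ± 0.34 by loess and 0.07 by median centring. The nitrate channel of MZ00041285 did not exceed the blank spots on replicate 2, so that its ratio there is imprecise.

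Over its 18 tested probes, malic enzyme had a median log2 ratio of 0.13, with 7 above 0 and 4 below 0 on both arrays. Probe MZ00010994, described as an oxaloacetate-decarboxylating NADP enzyme of maize, read 1369 and 804 with nitrate, against 852 and 630 in the control. Its nitrate side was the brighter on both arrays, with a mean of 0.52 ± 0.23 (limma adjusted p = 0.429). A rice-hit NADP-malic enzyme (MZ00014362) read 50438 and 11894 with nitrate, against 36549 and 8494 in the control. Its 2 ratios were nearly equal, at 0.46 and 0.49, while its brightness differed several-fold between the arrays (limma adjusted p = 0.444). The lowest was MZ00009980, described as a chloroplast NADP-malic enzyme, the form that serves C4 photosynthesis in the maize leaf. It read 8025 and 2718 with nitrate, against 10118 and 3944 in the control, a mean of -0.44 ± 0.14 (limma adjusted p = 0.472). Of the 2 other probes with its hit, MZ00036314 had a mean of 0.28, and MZ00024150 had 0.16 by loess and -0.11 by median centring. NAD-dependent malic enzyme, the mitochondrial form, had 2 probes at -0.33 and 0.23.

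**Figure D3:**
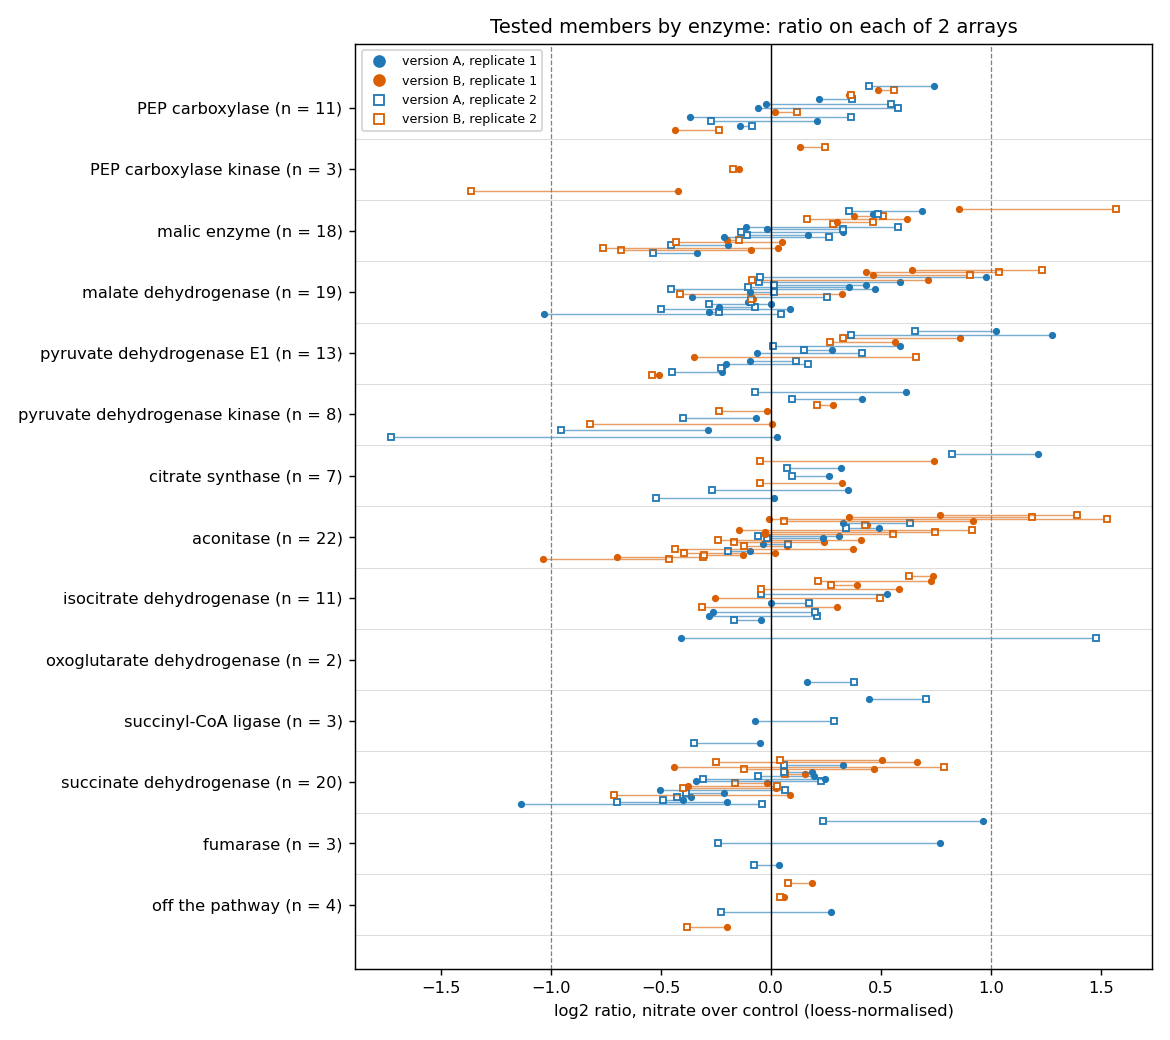
Log2 ratio of nitrate over control (horizontal axis) of every tested member, arranged by enzyme and sorted by mean within it; a line joins replicate 1 (filled circle) and replicate 2 (open square) of a probe, blue is version A, orange version B, and dashed lines mark 2-fold. Most enzymes have probes on both sides of 0, and the lines of 65 of the 144 members cross it.

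Malate dehydrogenase interconverts oxaloacetate and malate and has forms in several compartments. Its 19 tested probes had a median log2 ratio of -0.04, with 4 above 0 and 5 below 0 on both arrays, and 3 of the 4 were among the members with an unadjusted limma p under 0.05. MZ00038150, with a rice protein as hit, read 5505 and 15512 with nitrate, against 3534 and 6610 in the control. The nitrate side was the brighter on both arrays, and the sides overlapped across arrays. The mean log2 ratio was 0.94 ± 0.42 (SD, n = 2), or 1.91-fold (limma adjusted p = 0.201). Probe MZ00043237 has the same hit. It read 13454 and 28109 with nitrate, against 9747 and 15035 in the control, with a mean of 0.68 ± 0.31 (limma adjusted p = 0.310). The third, MZ00024601, is described as an NAD-malate dehydrogenase and read 13293 and 12595 with nitrate, against 9861 and 6148 in the control. Both of its nitrate values lay above both control values, with a mean of 0.73 ± 0.43 (limma adjusted p = 0.297).

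The same rice hit was shared by 7 malate dehydrogenase probes in all, and the 5 others had means of at most 0.27. The brightest of them, MZ00043236, read 61258 and 54990 with nitrate, against 64820 and 58513 in the control, where replicate 1 was saturated. Its ratios were -0.08 and -0.09. Probes described as cytoplasmic numbered 5, with means from -0.15 to 0.46, and the 3 glyoxysomal ones lay between -0.05 and 0.13 with opposite signs on the arrays. The chloroplast NADP-malate dehydrogenase (MZ00024732) had the lowest mean, -0.49 ± 0.76, with ratios of -1.03 and 0.04. It was dim, at 112 and 284 with nitrate against 229 and 275 in the control, and its nitrate channel did not exceed the blank spots on replicate 1. Its ratio depended on how low signals were treated, at -2.73 in the deposited ratios and -3.49 without the background model.

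Pyruvate dehydrogenase commits pyruvate to the TCA cycle, and its E1 component carries out the decarboxylation with an alpha and a beta subunit. The 13 tested probes had a median log2 ratio of 0.18, with 6 above 0 and 3 below 0 on both arrays. All 5 alpha subunit probes, which share a hit, had means above 0 by loess, between 0.15 and 0.42, where 26561 of all 53120 tested probes did. Of the 5, 3 were above 0 on both arrays and 2 had opposite signs. The lowest, MZ00041329, did not exceed the blank spots in the nitrate channel of replicate 1. By median centring 2 of the 5 means were below 0, and 1 was with print-tip loess and with the deposited ratios. The beta subunit was divided, with 4 of 8 means above 0.

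Beta isoform 1 had 3 probes, and these differed from each other. MZ00004093, on version A, read 713 and 483 with nitrate, against 352 and 307 in the control, so that both nitrate values lay above both control values. Its mean log2 ratio was 0.84 ± 0.26 (SD, n = 2), or 1.79-fold (limma adjusted p = 0.312). MZ00014231, the second version A probe, read 40995 and 64537 with nitrate, against 16951 and 50101 in the control. Replicate 2 was saturated in both channels, so that the ratio of 1.27 on replicate 1 is its single usable value. The third, MZ00003442 on version B, lay the other way, at 604 and 427 with nitrate against 859 and 620 in the control, with a mean of -0.52 ± 0.02 (limma adjusted p = 0.393). An isoform 2 probe (MZ00043816) read 3065 and 8228 with nitrate, against 1689 and 6559 in the control, a mean of 0.59 ± 0.38 (limma adjusted p = 0.371). The brightest beta probe, MZ00014741, had -0.02 ± 0.26.

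Pyruvate dehydrogenase kinase inactivates pyruvate dehydrogenase by phosphorylating E1. Its 8 tested probes had a median log2 ratio of -0.18, with 2 above 0 and 3 below 0 on both arrays. MZ00000509, an isoform 2 probe, read 1560 and 1356 with nitrate, against 1530 and 4479 in the control. The low ratio came from replicate 2 alone, at -1.72 against 0.03 on replicate 1, where the control signal was high (mean -0.85 ± 1.24; limma adjusted p = 0.447). Another isoform 2 probe, MZ00025163, read 2839 and 2684 with nitrate, against 3466 and 5195 in the control. Both nitrate values lay below both control values, and the mean was -0.62 ± 0.47 (SD, n = 2; limma adjusted p = 0.412). A further isoform 2 probe (MZ00011083) had the highest mean of the enzyme, 0.27 ± 0.48. The brightest probe, for isoform 1 (MZ00025597), had 0.25 ± 0.23, and the 4 isoform 1 probes ranged from -0.41 to 0.25.

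Citrate synthase joins acetyl-CoA and oxaloacetate. Its 7 tested probes had a median log2 ratio of 0.18, with 3 above 0 and 0 below 0 on both arrays. MZ00010085 had the smallest limma p of the version A members. It read 5411 and 15592 with nitrate, against 2332 and 8810 in the control, brighter with nitrate on each array. The log2 ratio was 1.21 on replicate 1 and 0.82 on replicate 2, with a mean of 1.02 ± 0.28 (SD, n = 2), or 2.03-fold (limma adjusted p = 0.278). The 3 other probes with its rice hit, all on version A, had means from -0.26 to 0.20. The lowest of these was also the brightest citrate synthase probe, MZ00024250, which read 24429 and 25757 with nitrate, against 24238 and 37016 in the control.

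Aconitase isomerises citrate to isocitrate in the mitochondrion and, in plants, also in the cytosol. It had the most tested probes, 22, with a median log2 ratio of 0.12, and 12 of them had opposite signs on the arrays. MZ00008445, whose hit is a sweet cherry (Prunus avium) protein, read 1510 and 1206 with nitrate, against 887 and 460 in the control. Both nitrate values lay above both control values. The mean log2 ratio was 1.08 ± 0.44 (SD, n = 2), or 2.11-fold (limma adjusted p = 0.170). MZ00038699 read 1716 and 4724 with nitrate, against 1341 and 2079 in the control, with ratios of 0.36 and 1.18 and a mean of 0.77 ± 0.59 (limma adjusted p = 0.304). It belongs to 16 probes with 1 rice aconitase as hit, of which 15 were tested. Of these 15, 13 had means above 0 by loess, where 26561 of all 53120 tested probes did. On both arrays, 5 of the 15 were above 0 and 1 was below 0, and 9 had opposite signs. By median centring 7 means were above 0, and the median of the 15 moved to -0.01, against 0.26 by loess.

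The 4 probes described as cytoplasmic aconitase had means below 0 by loess, where 26559 of all 53120 tested probes did, with MZ00042415 the lowest. It read 8320 and 9115 with nitrate, against 17054 and 12572 in the control, so that both nitrate values lay below both control values, with ratios of -1.04 and -0.46 and a mean of -0.75 ± 0.40 (SD, n = 2; limma adjusted p = 0.282). The 3 others ranged up to -0.02, the value of the brightest aconitase probe, MZ00039349 (limma adjusted p = 0.979). All 4 means were below 0 with loess, median centring, print-tip loess, scaling between arrays, no background model and the deposited ratios, while 2 of the 4 probes were below 0 on both arrays. Another probe, MZ00038322, is described only as an aconitase, but its melon hit carries the same database entry name, ACOC, as the hit of MZ00042415. Its ratios were -0.01 and 1.53, with a mean of 0.76 ± 1.09 (limma adjusted p = 0.395). Any difference between these probes and the other aconitases was seen in the values and was not tested.

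Isocitrate dehydrogenase yields 2-oxoglutarate, with an NAD-dependent mitochondrial form and NADP-dependent forms that include a cytosolic one. The 11 tested probes had a median log2 ratio of 0.12, with 4 above 0 and 1 below 0 on both arrays. The NAD-dependent MZ00037527, with a tobacco protein as hit, read 1730 and 2056 with nitrate, against 1040 and 1331 in the control. Both nitrate values lay above both control values, and the 2 ratios were close, at 0.73 and 0.63 (mean 0.68 ± 0.08, or 1.60-fold; limma adjusted p = 0.295). A further NAD-dependent probe, for subunit II (MZ00033956), was the lowest of the enzyme, at -0.11 ± 0.09. The 6 NADP-dependent probes had means between -0.03 and 0.27, and 5 of them had opposite signs on the arrays. The brightest probe of the enzyme, MZ00014725, names no cofactor and had -0.04 ± 0.35.

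The steps from 2-oxoglutarate to succinate had 5 tested probes. Oxoglutarate dehydrogenase, which oxidises 2-oxoglutarate to succinyl-CoA, had 2 probes for its E1 subunit. MZ00006729 read 248 and 994 with nitrate, against 330 and 357 in the control, with ratios of -0.41 and 1.48 that do not give a direction (limma adjusted p = 0.623). MZ00014589 had a mean of 0.27 ± 0.15 by loess and -0.06 by median centring. Succinyl-CoA ligase makes succinate and a nucleotide triphosphate. Its alpha subunit probe MZ00034362 read 5524 and 25209 with nitrate, against 4054 and 15452 in the control, brighter with nitrate on each array, with a mean of 0.58 ± 0.18 (SD, n = 2; limma adjusted p = 0.399). The second alpha probe, MZ00024839, had 0.11 ± 0.26 by loess and -0.29 by median centring. The beta-chain probe MZ00013831 was saturated in the control channel of both arrays, so that its size of difference is not known. The mean log2 ratio was -0.20 by loess, -0.63 with median centring, -0.09 with print-tip loess and -0.07 in the deposited ratios (limma adjusted p = 0.745 by loess).

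Succinate dehydrogenase oxidises succinate and passes the electrons to ubiquinone, as complex II of the respiratory chain. Its 20 tested probes had a median log2 ratio of -0.07, and 0 of them reached an unadjusted limma p under 0.05, with 4 above 0 and 6 below 0 on both arrays. The 5 probes for the iron-sulfur subunit all had means below 0 by loess, from -0.59 to -0.06, where 26559 of all 53120 tested probes did. Their means were also below 0 with the other ways of computing named for aconitase, which reuse the same arrays. On both arrays, 2 of the 5 were below 0. This subset was chosen after its values were seen, and its difference from the other subunits was not tested. The lowest, MZ00015247, read 19034 and 15492 with nitrate, against 41831 and 15939 in the control. The difference came from replicate 1, at -1.14 against -0.04 on replicate 2 (limma adjusted p = 0.473). Subunit 3, a membrane anchor, had 5 probes from -0.40 to 0.21, with 4 means below 0 by loess and 3 probes below 0 on both arrays. Median centring put all 5 means below 0, and each of the other ways of computing put 4 there. The 10 flavoprotein probes, for the subunit that holds the site of succinate oxidation, had 7 means above 0 by loess, and 4 were above 0 on both arrays. By median centring 5 of the 10 means were below 0, and 6 were with the deposited ratios. The flavoprotein probes include the highest of the enzyme, MZ00039200 at 0.27 ± 0.33, and the brightest, MZ00040199 at 0.17 ± 0.42 by loess and -0.23 by median centring.

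Fumarase hydrates fumarate to malate. MZ00020812, described by its Arabidopsis hit as fumarate hydratase 2, read 1160 and 2273 with nitrate, against 595 and 1930 in the control. Its ratios were 0.96 and 0.24, with a mean of 0.60 ± 0.51 (SD, n = 2; limma adjusted p = 0.428). MZ00015710, with fumarate hydratase 1 as hit, had 0.77 and -0.24 on the 2 arrays. The third probe, MZ00034701, has a bacterial protein as its hit and was near the blank spots, at -0.02 ± 0.08 by loess and 0.36 by median centring. Of the 4 probes off the pathway, the isopropylmalate dehydrogenases MZ00024518, MZ00054845 and MZ00024517 had 0.13 ± 0.08, 0.05 ± 0.01 and -0.29 ± 0.13, the first of them -0.25 by median centring. The probe for the predicted rice protein, MZ00025321, had 0.02 ± 0.35 by loess and -0.17 by median centring.

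**Figure D4:**
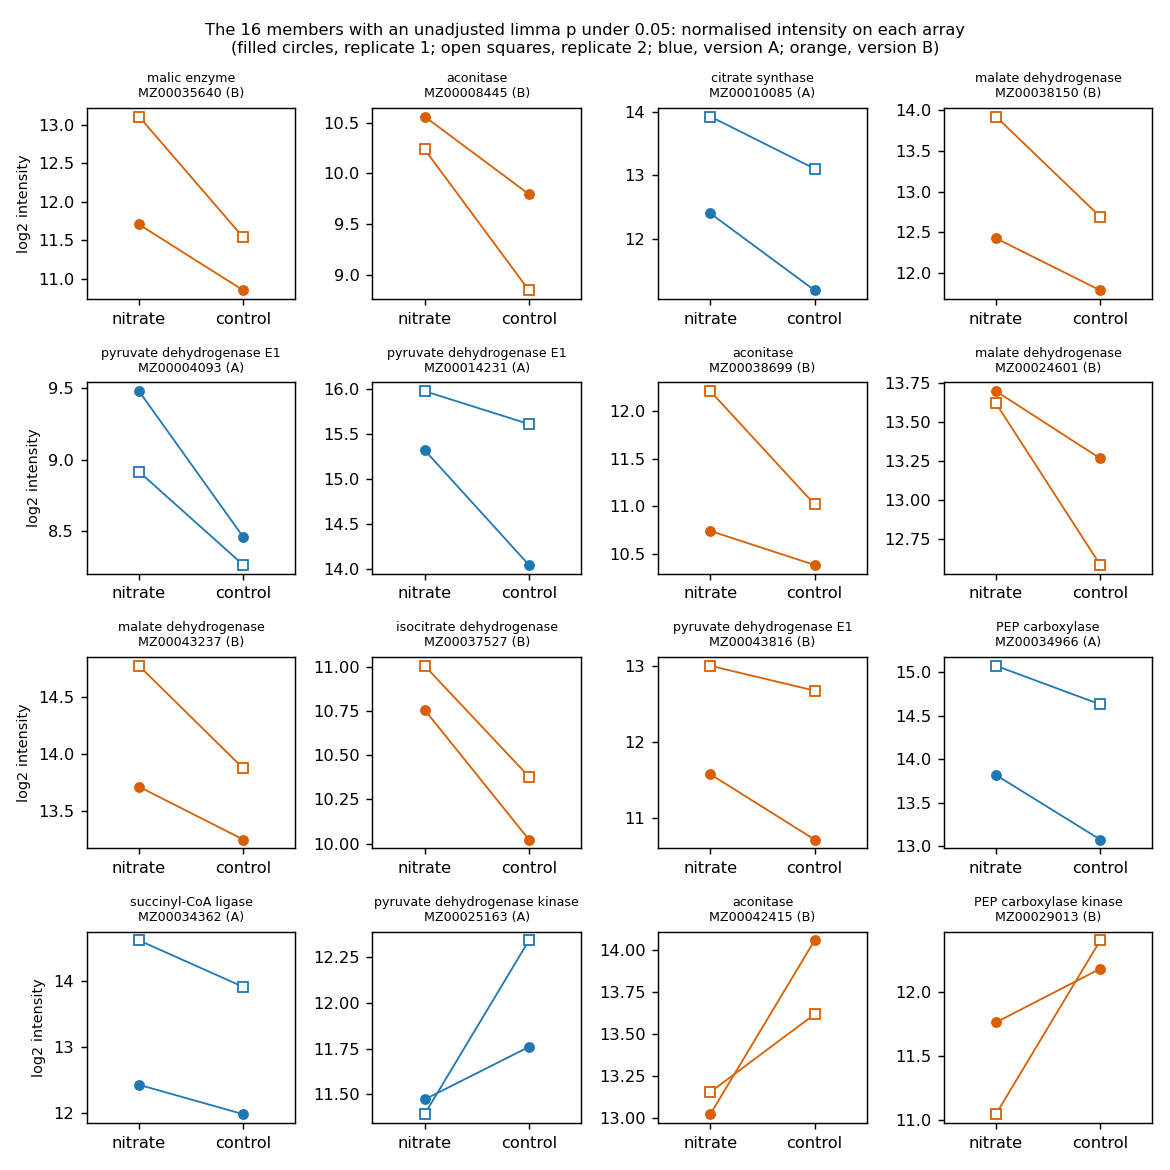
Log2 normalised intensity (vertical axis, own scale in each panel) with nitrate (left) and control (right) for the 16 members with an unadjusted limma p under 0.05, ordered by mean log2 ratio; filled circles are replicate 1, open squares replicate 2, blue is version A and orange version B. In each panel both lines slope the same way, down to the control in 13 panels and up to it in 3; replicate 2 of MZ00014231 was saturated in both channels, and for many probes the 2 arrays lie farther apart than nitrate and control do.

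The 16 members with an unadjusted limma p under 0.05 spanned 10 enzymes, 13 higher with nitrate and 3 lower. They were 11.1% of the 144 tested members, against 12.5% of the 53120 probes tested on both versions, with 9.03% higher against 7.59% and 2.08% lower against 4.86%, so that their share was near that of all probes. One of the 13, MZ00014231, rests in part on the array where it was saturated in both channels. The 3 lower ones were PEP carboxylase kinase MZ00029013, pyruvate dehydrogenase kinase MZ00025163 and cytoplasmic aconitase MZ00042415. When the ratios themselves were recomputed, 12 of the 16 kept a limma p under 0.05 without the background model, 10 with median centring, 13 with print-tip loess, 16 with scaling between arrays and 9 with the deposited ratios. With a trended robust prior on the same ratios 4 did.

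Probes with the same top hit often had different means, and no difference between them was tested. Of the 67 hits, 19 had at least 3 tested probes, and the means within a hit ranged widely for the non-photosynthetic malic enzyme (1.40 on the log2 scale between its highest and lowest probe), pyruvate dehydrogenase E1 beta isoform 1 (1.36), citrate synthase (1.27), malate dehydrogenase (1.14), pyruvate dehydrogenase kinase isoform 2 (1.12) and PEP carboxylase kinase (1.08). In these hits the median SD between a probe's 2 arrays was 0.08 to 0.48. The lowest probe of pyruvate dehydrogenase kinase isoform 2, MZ00000509, was low on 1 array only. That of malate dehydrogenase, MZ00025628 at -0.21, was saturated in the control channel of replicate 2. The narrowest were the pyruvate dehydrogenase E1 alpha subunit (0.26) and NADP-isocitrate dehydrogenase (0.27). All loess means lay on 1 side of 0 for the E1 alpha subunit, the oxaloacetate-decarboxylating NADP enzyme and 1 hit of succinate dehydrogenase subunit 3. Whether probes of a hit read 1 gene or several is not given in the files used here, since a hit is the closest described protein.

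**Figure D5:**
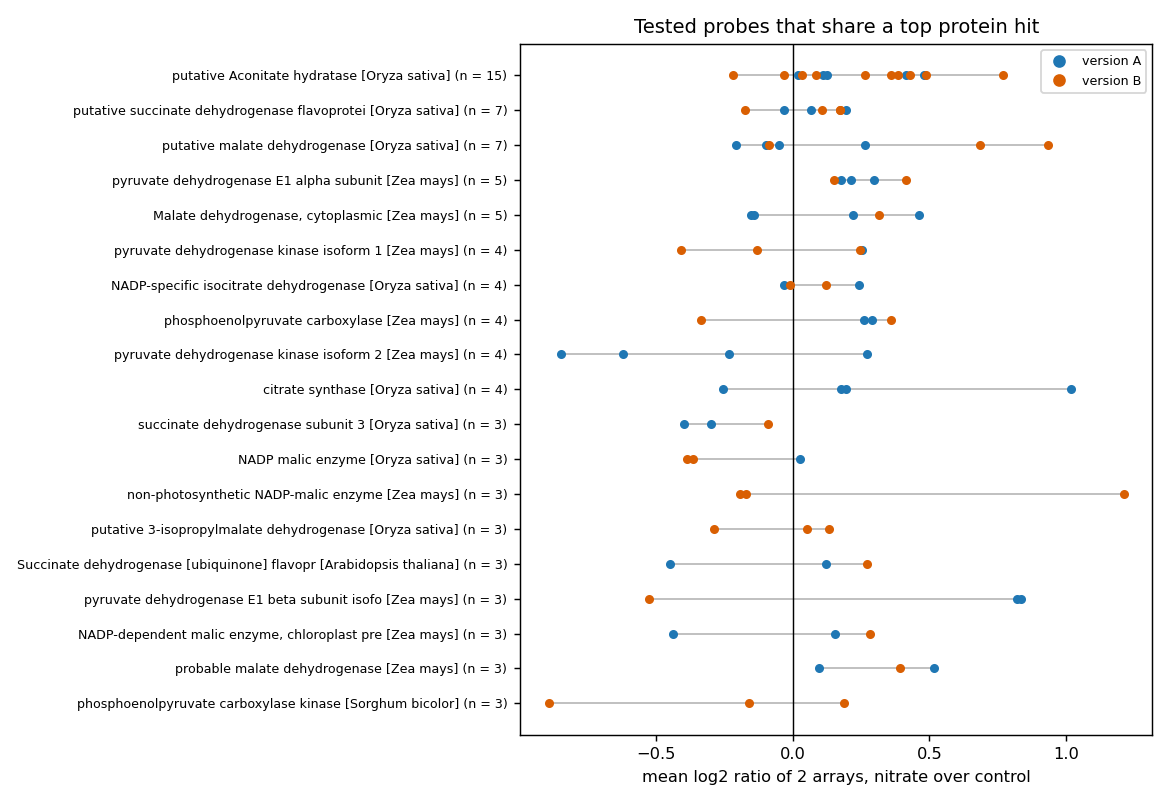
Mean log2 ratio of 2 arrays, nitrate over control (horizontal axis), of the tested probes that share a top protein hit, for the 19 hits with at least 3 tested probes; each point is a probe, blue for version A and orange for version B, and the grey line spans the hit. The non-photosynthetic NADP-malic enzyme spans the most, from -0.19 to 1.21, with 1 probe apart from the 2 others.

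Outside the set, 66 probes were described as other genes of organic acid metabolism, among them PEP carboxykinase, which runs from oxaloacetate back to PEP, pyruvate orthophosphate dikinase, the dihydrolipoamide subunits of the 2-oxoacid dehydrogenases and carriers of dicarboxylic acids. None of the 66 passed the test, with a smallest limma adjusted p of 0.225. At an unadjusted limma p under 0.05, 8 were higher with nitrate (12.1%, against 7.59% of all tested probes) and 2 lower (3.03%, against 4.86%). The median log2 ratio was 0.05, against 0.10 for the 144 members. The highest was a plastidic general dicarboxylate transporter (MZ00047092) at 0.86 ± 0.89 and the lowest a PEP carboxykinase (MZ00013532) at -0.67 ± 0.50. The brightest, another PEP carboxykinase (MZ00041042), was saturated in both channels of both arrays and gives no ratio.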

How the data were processed

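Each array measured nitrate-side RNA in Cy3 and control-side RNA in Cy5, per the labels. The deposited intensity of each channel is a linear value with some entries below 0, so the authors had subtracted a background before deposit. The deposited ratio divides nitrate by control, is linear, and was normalised by the authors within each array; how is not given in the sources used here. A series-wide value table repeats these ratios (equal within 0.0001 on 100% of spots). The deposited intensities were turned into log2 ratios here, by limma 3.58.1 (R 4.3.3) with normexp (offset 50) and 1 global loess curve per array, in which control spots and spots flagged B, read as bad quality, had weight 0. Signals over the 95th percentile of buffer and blank spots counted as above background, and those at 99% of the channel's highest value or more as saturated. Testing needed a channel above background on each of the 2 arrays. The local background that the planned filter needed was not used here.

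For each version, lmFit and eBayes tested the mean log2 ratio of 2 arrays against 0, with Benjamini-Hochberg adjustment over all tested probes and a threshold of 0.05. With 1 residual degree of freedom, most of the error estimate comes from a prior pooled over probes. The series text gives 2 biological replicates, but the labels do not say whether their control RNA came from separate plants, so the spread between arrays may in part be technical. The number of arrays limits the precision. Enzyme groups follow the descriptions. Named are the highest, lowest and brightest member of each enzyme, all members of enzymes with 4 or fewer, the 10 smallest p-values per version, and any called or at least 2-fold on both arrays. Housekeeping, cytoplasmic, subunit and cofactor subsets, and members named for sharing a hit or its entry name with these, were added after their values were seen. Members and lists were chosen with earlier results of these data known.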

Additional observations from a re-analysis of the deposited data

How the results depend on the processing

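Members were recomputed without normexp, with median centring, print-tip loess, scaling between arrays, no filter on dim probes, both channels above background, a trended robust prior, the deposited ratios, and each replicate left out. No member was called in any of the 8 settings that keep both arrays, with a smallest limma adjusted p between 0.0740 (median centring) and 0.519 (trended robust prior). Of the 49 named members, 8 changed sign with median centring, 3 with print-tip loess and 3 with the deposited ratios, against 7 without replicate 1 and 6 without replicate 2. On version A, 6 members had an unadjusted limma p under 0.05, against 3 without normexp, 17 with median centring and 0 with the trended robust prior. On version B, 10 did, against 17 with median centring and 4 with that prior. The shares of all probes under these settings were not counted, so these changes cannot be read as particular to the members. The version A median log2 ratio of 0.0283 was -0.112 with median centring, 0.0233 with print-tip loess, 0.0347 with scaling, 0.0405 with both channels above background, -0.00295 with the deposited ratios, and 0.00858 to 0.0113 with a replicate left out. The version B median of 0.153 was 0.0181 with median centring, where all probes had -0.0385. It was 0.0764 with print-tip loess, 0.122 with the deposited ratios and 0.0390 to 0.188 with a replicate left out. With 1 array left, no test remains. Version A then had 2 members at least 2-fold without replicate 1 and 5 without replicate 2, and version B had 7 and 1 in that order, where both arrays together gave 0. Over all probes a single array had 4.79% to 5.82% at least 2-fold, against 1.54% to 10.8% of members. The causes were not tested. No paired analysis was possible because no replicate block can be added to the pairing each array already holds, its ratio of nitrate over control being the value tested.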

Other observations

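A further probe ID described as pyruvate dehydrogenase E1 beta subunit isoform 2 (MZ00041456) has 2 spots on version B and so lay outside the set. Its spots differed in brightness on both arrays. The first read a deposited intensity of 685 and 862 with nitrate, against 1172 and 714 in the control, and the second read 24157 and 29901 with nitrate, against 37264 and 30523 in the control. The deposited ratios of nitrate over control were 0.684 and 0.910 for the first spot and 0.991 and 1.18 for the second. The mean log2 ratio over both spots was -0.29 ± 0.27 (SD, n = 2 arrays; limma adjusted p = 0.665).

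A probe described as a malate dehydrogenase (MZ00015653) carries the enzyme number of NADP-malic enzyme in the files and was counted here by its description. It read 11120 and 15163 with nitrate, against 13510 and 17879 in the control, with a mean log2 ratio of -0.26 ± 0.03 (limma adjusted p = 0.648).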
